A study of Mus musculus with 12 samples.

Results

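The machinery that moves a cell through G1, the phase before DNA synthesis, was examined in mouse hematopoietic stem cells (HSCs) after estradiol (E2) treatment through 10 genes, 5 drivers and 5 brakes. The drivers were the D-type cyclin genes Ccnd1, Ccnd2 and Ccnd3 and their kinase partners Cdk4 and Cdk6. The brakes were the kinase inhibitor genes Cdkn1b, Cdkn1c and Cdkn2c, the retinoblastoma gene Rb1 and the forkhead transcription factor gene Foxo3. The members were the probe sets annotated to 1 of these symbols and to no other gene, 11 of 35474 on the array, or 10 of 19935 genes, with Cdkn1b measured by 2 probe sets. All 10 genes lay above the filter on dim genes and were among the 9967 tested.

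Cells negative for lineage markers and CD48 and positive for c-kit, Sca-1 and CD150 were sorted as HSCs, in lots of 5000 to 7000, from mice aged 2 to 3 months. There were 4 groups of 3 arrays, each group from 3 mice. Female and male mice were given 2 µg of E2 in 100 µL of corn oil under the skin, and the control females and males were given 100 µL of corn oil alone. All groups thus shared the oil injection, and the labels used here name no strain, no genetic change and no duration of treatment. RNA was amplified from each sort and hybridised to 1 array per sample.

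D-type cyclins bind Cdk4 or Cdk6 early in G1, and the active kinases phosphorylate the retinoblastoma protein, which otherwise holds the E2F transcription factors in check. The INK4 inhibitors, among them the product of Cdkn2c, bind Cdk4 and Cdk6 and keep the cyclins away, whereas the Cip/Kip inhibitors encoded by Cdkn1b and Cdkn1c act on cyclin-bound kinases. FOXO factors promote quiescence and stress resistance and are excluded from the nucleus when AKT is active. Most HSCs rest outside the cell cycle, and in mice Cdkn1c and Foxo3 are needed to keep the HSC pool at rest.

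The promoters of the 3 members that passed the test below, Cdk6, Cdkn2c and Foxo3, are shown to set the sequence around each start site beside the values, together with that of Cdk4, the kinase that shares the partners of Cdk6. In the table of RefSeq promoters used here, 6 of the 10 members were matched, Ccnd3, Cdk4, Cdk6, Cdkn1b, Cdkn2c and Foxo3. Promoters of Ccnd1, Ccnd2, Cdkn1c and Rb1 were not used here. Each sequence runs from 250 bases before to 50 bases after a gene's start, on the gene's strand in build GRCm38.p6. Cdk6 is at chr5:3343643-3343942 (plus strand), Cdkn2c at chr4:109666707-109667006 (minus strand, the first of its 2 starts), Foxo3 at chr10:42276646-42276945 (minus strand) and Cdk4 at chr10:127063285-127063584 (plus strand). Capitals mark every match, on either strand, to the motifs named after the sequences.
Cdk6: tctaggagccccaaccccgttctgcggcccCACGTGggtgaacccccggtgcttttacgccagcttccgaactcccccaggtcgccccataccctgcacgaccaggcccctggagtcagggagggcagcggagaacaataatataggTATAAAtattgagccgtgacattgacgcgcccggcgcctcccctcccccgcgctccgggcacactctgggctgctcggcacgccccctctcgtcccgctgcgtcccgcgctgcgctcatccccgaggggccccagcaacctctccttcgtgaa
Cdkn2c: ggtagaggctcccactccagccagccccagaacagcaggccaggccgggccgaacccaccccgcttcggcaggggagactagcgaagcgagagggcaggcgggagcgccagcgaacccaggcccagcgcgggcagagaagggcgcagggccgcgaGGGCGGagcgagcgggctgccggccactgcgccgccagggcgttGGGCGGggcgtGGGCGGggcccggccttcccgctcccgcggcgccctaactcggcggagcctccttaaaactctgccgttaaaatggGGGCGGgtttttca
Foxo3: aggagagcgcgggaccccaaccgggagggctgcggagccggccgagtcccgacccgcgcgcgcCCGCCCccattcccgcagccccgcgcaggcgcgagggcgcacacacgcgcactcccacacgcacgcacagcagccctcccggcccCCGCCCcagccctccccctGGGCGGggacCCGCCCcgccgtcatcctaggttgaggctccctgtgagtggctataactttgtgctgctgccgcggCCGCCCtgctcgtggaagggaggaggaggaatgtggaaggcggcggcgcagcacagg
Cdk4: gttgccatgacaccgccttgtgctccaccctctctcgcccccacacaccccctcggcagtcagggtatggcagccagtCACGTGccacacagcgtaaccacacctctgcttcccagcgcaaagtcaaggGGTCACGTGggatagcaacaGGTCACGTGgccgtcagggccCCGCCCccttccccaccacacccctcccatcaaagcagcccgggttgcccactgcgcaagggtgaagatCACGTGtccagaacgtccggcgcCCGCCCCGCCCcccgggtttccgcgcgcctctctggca

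The full estrogen response element, GGTCA and TGACC set 3 bases apart, had 0 matches in the 8 promoters of the 6 members, and 0.07% of all 32851 promoters of the same length held it. Its single arm GGTCA had 2 matches in Cdk4 and 0 in Cdk6, Foxo3 and the shown Cdkn2c promoter, against 40.5% of all promoters with at least 1. The E-box CACGTG had 4 matches in Cdk4, of which 2 overlapped a GGTCA arm, and 1 in Cdk6, and was held by 7.15% of all promoters. The GC box GGGCGG had 5 matches in Foxo3, 4 in the shown Cdkn2c promoter, 3 in Cdk4 and 0 in Cdk6, and was held by 35.7% of all promoters. Cdk6 also had 1 match to TATAAA, which 13.6% of all promoters held. The E2F forms TTTCCCGC and TTTGGCGC had 0 matches in the 8 promoters, and 1.07% and 0.514% of all promoters held them. The other motifs searched were CCAAT, held by 37.4% of all promoters, and the FOXO form GTAAACA, held by 3.65%, and neither matched the 4 sequences above. These matches describe letters in a window.

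Median intensity per array was 143 to 159, and precision is limited by having 3 arrays per group. The X-linked transcript Xist read 3417 to 3897 on the female arrays and 61.9 to 73.0 on the male arrays, so all 12 arrays matched their sex labels. The HSC marker genes Slamf1, Kit and Procr lay above the filter value of 182, while Cd48, absent from the sorted surface phenotype, averaged 67.7 to 92.5 per group. Of 8 granulocyte marker genes, 7 also lay above the filter value, with levels given among the markers below. The array farthest from the others of its group was female E2 replicate 1, and the other female E2 arrays came next. For replicate 1 the root mean square difference from the mean of its group's other arrays was 0.300 (log2, over the genes tested). Results are therefore also given without female E2 replicate 1. The labels and file columns used here name no processing batch.

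With E2 the kinase gene Cdk6 fell in both sexes, and the inhibitor gene Cdkn2c and the transcription factor gene Foxo3 fell on average over the sexes. Cdk6 was 0.629 times its oil level on average (95% interval 0.544 to 0.727), Cdkn2c 0.826 times (0.753 to 0.905) and Foxo3 0.842 times (0.756 to 0.937). None of the 10 genes was called higher. By limma with Benjamini-Hochberg adjustment over 9967 genes and an adjusted p under 0.05 as the threshold, 3 of the 10 were called in the averaged comparison, where 8.9% of all genes were called. All 3 were lower and 0 of 10 higher, while 5.78% of all genes were called lower and 3.12% higher. By sex, 1 of 10 was called in females, where 3.56% of all genes were called (2.75% lower and 0.813% higher). In males 1 of 10 was called, where 1.43% of all genes were called (0.863% lower and 0.572% higher). Both calls were Cdk6, lower. With each array left out in turn, the averaged calls of Cdk6 and Cdkn2c held in 12 of 12 fits, and that of Foxo3 in 1. The Cdk6 call held in 11 of the 12 fits in females and in 3 in males.

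Of the 5 drivers, Cdk6 alone was called, lower with E2. Cdk6 read 687, 460 and 472 on the female E2 arrays and 878, 818 and 916 on the female oil arrays. In males Cdk6 read 548, 631 and 617 with E2 and 871, 1031 and 873 with oil. Every E2 array was below every oil array within each sex, and across the sexes as well. The group means were 540 ± 128 and 871 ± 49.1 in females with E2 and oil, and 599 ± 44.2 and 925 ± 91.9 in males with E2 and oil (SD, n = 3). The order of the means was male oil, female oil, male E2 and female E2, and the neighbours of the same treatment overlapped.

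The log2 fold change of Cdk6 was -0.67 ± 0.10 on average (SE; limma adjusted p = 0.00106), -0.71 ± 0.14 in females (adjusted p = 0.0142) and -0.62 ± 0.14 in males (adjusted p = 0.0392). Cdk6 was 66th by p among the 576 genes called lower on average, and 0.552% of all genes tested had a more negative fold change. With each of the 12 arrays left out in turn the averaged call held, with adjusted p from 3.45e-05 to 0.00441. The call in females ended without female oil replicate 3 (-0.67, adjusted p = 0.0629). The call in males ended without any 1 of the 6 male arrays or the 3 female oil arrays, with adjusted p from 0.0581 to 0.190 and log2 fold changes from -0.67 to -0.54. It also ended with median centring (adjusted p = 0.0768) and with no filter on dim genes (adjusted p = 0.0987).

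Cdk4, the other partner kinase of the D cyclins, had values on the opposite side of 0 that did not pass. Cdk4 read 2713, 2211 and 2042 on the female E2 arrays and 2227, 1982 and 1954 on the female oil arrays. In males Cdk4 read 2358, 2565 and 2308 with E2 and 1972, 2036 and 1991 with oil. The male groups did not overlap, and the female groups did. Its log2 fold change was 0.22 ± 0.07 on average (SE; limma adjusted p = 0.0828; 95% interval 0.06 to 0.38), 0.17 ± 0.10 in females (adjusted p = 0.421) and 0.27 ± 0.10 in males (adjusted p = 0.247). Without female E2 replicate 1 it was 0.05 in females (adjusted p = 0.802) and 0.16 on average (adjusted p = 0.120). The averaged interval for Cdk4 lay wholly above 0 and that for Cdk6 wholly below it, at -0.88 to -0.46. These intervals are not adjusted for the number of genes tested. In this comparison 24.6% of all genes, and 7 of the 10 members, had an unadjusted limma p under 0.05.

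The D cyclins differed among themselves in direction, and none passed. Ccnd1, the D cyclin gene most often described as an estrogen target in breast cells, read 1173, 932 and 775 on the female E2 arrays and 893, 629 and 725 on the female oil arrays. The male arrays read 982, 1172 and 1031 with E2 and 876, 823 and 973 with oil. The male groups were apart, by a narrow margin, and the female groups overlapped. Its averaged log2 fold change was 0.30 ± 0.11 (SE; limma adjusted p = 0.0988), with 0.35 in females (adjusted p = 0.231) and 0.25 in males (adjusted p = 0.473). Without female E2 replicate 1 the averaged value was 0.23 (adjusted p = 0.164).

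Ccnd2, a D cyclin used widely in blood cells, read 2541, 2222 and 2039 on the female E2 arrays and 2822, 2611 and 2536 on the female oil arrays. Male values were 2535, 2744 and 2489 with E2 and 3068, 2568 and 2791 with oil. The groups overlapped in both sexes, in females by a single E2 array that exceeded the lowest oil array. Its averaged log2 fold change was -0.17 ± 0.07 (SE; limma adjusted p = 0.143). Ccnd3, the D cyclin gene needed for thymocyte expansion in mice, averaged 1202 ± 198 and 1205 ± 51.0 in females with E2 and oil, and 1225 ± 73.5 and 1154 ± 63.6 in males with E2 and oil (SD, n = 3). Its averaged log2 fold change was 0.04 with a 95% interval of -0.13 to 0.20.

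**Figure D1:**
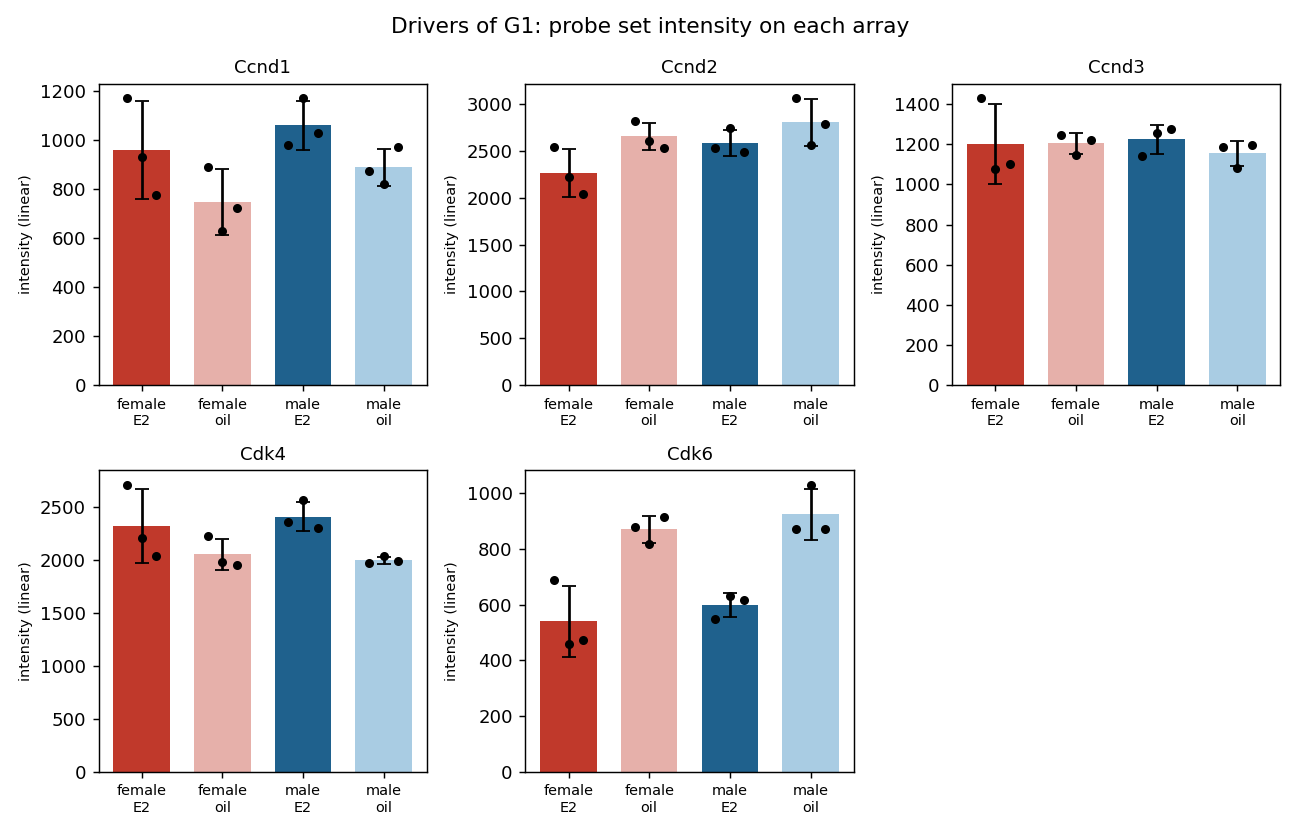
Linear probe set intensity of the 5 drivers in 4 groups (female E2, female oil, male E2, male oil). Bars are means, error bars SD over 3 arrays and points single arrays. All E2 arrays of Cdk6 lie at 687 or lower and all oil arrays at 818 or higher, while the groups of Ccnd2 and Ccnd3 overlap in both sexes.

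Of the 5 brakes, Cdkn2c and Foxo3 fell on average, and Cdkn1b, Cdkn1c and Rb1 were not called on the brightest probe set. Cdkn2c, the INK4 inhibitor gene whose loss enlarges the HSC pool in mice, read 284, 283 and 277 on the female E2 arrays and 350, 352 and 309 on the female oil arrays. In males it read 268, 262 and 293 with E2 and 367, 323 and 321 with oil. The E2 arrays were below the oil arrays in both sexes, with the 3 female E2 values close together (SD 3.83). Its log2 fold change was -0.28 ± 0.06 on average (SE; limma adjusted p = 0.0147), with -0.26 in females (adjusted p = 0.126) and -0.30 in males (adjusted p = 0.128). The averaged call held whichever array was left out, with adjusted p from 0.0148 to 0.0487.

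Foxo3 read 1516, 1351 and 1854 on the female E2 arrays and 2012, 2074 and 1906 on the female oil arrays. In males it read 1786, 1758 and 1772 with E2 and 1949, 1924 and 1992 with oil. The groups did not overlap in either sex, and the E2 spread was wide in females (SD 257) and narrow in males (SD 13.5). The fit pooled the spread over the 4 groups, so the SE below is the same in both sexes. Its log2 fold change was -0.25 ± 0.07 on average (SE; limma adjusted p = 0.0475), -0.36 ± 0.10 in females (adjusted p = 0.0757) and -0.14 ± 0.10 in males (adjusted p = 0.559). That call was close to the threshold. Of the 12 leave-one-out fits it held in 1, that without female E2 replicate 3 (-0.31, adjusted p = 0.00538), and ended in the other 11, with adjusted p of up to 0.117 and log2 fold changes from -0.27 to -0.20.

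Cdkn1b gave different readings on its 2 probe sets. The brighter probe set, which stood for the gene, read 1115, 1507 and 1383 on the female E2 arrays and 1384, 1593 and 1339 on the female oil arrays. On the male arrays it read 1267, 1114 and 1170 with E2 and 1602, 1606 and 1378 with oil. The male groups were apart and the female groups overlapped. Its log2 fold change was -0.24 ± 0.08 on average (SE; limma adjusted p = 0.0894), -0.12 in females (adjusted p = 0.652) and -0.37 in males (adjusted p = 0.161).

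The dimmer Cdkn1b probe set read 403, 650 and 695 on the female E2 arrays and 991, 1009 and 944 on the female oil arrays. Male arrays read 663, 931 and 638 with E2 and 805, 851 and 825 with oil. On this probe set the female groups were apart and the male groups overlapped, the reverse of the brighter one. In a fit of 10972 single-symbol probe sets above the same level, chosen after the data were seen, its log2 fold change was -0.48 ± 0.13 on average (SE; limma adjusted p = 0.0391), where 8.43% of all probe sets were called. It was -0.79 ± 0.18 in females (adjusted p = 0.0376, with 2.98% of probe sets called) and -0.17 ± 0.18 in males (adjusted p = 0.724). Both probe sets had negative averaged values, and only the dimmer passed. The sources used here do not say which part of the transcript each probe set reads.

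The last 2 brakes gave no detectable difference. Cdkn1c, the Cip/Kip inhibitor gene needed for HSC quiescence in mice, averaged 313 ± 25.9 and 308 ± 27.9 in females with E2 and oil, and 293 ± 20.5 and 332 ± 20.3 in males with E2 and oil (SD, n = 3). Its averaged fold was 0.946 with a 95% interval of 0.853 to 1.05. Rb1, the retinoblastoma gene, averaged 343 ± 38.9 and 321 ± 6.51 in females with E2 and oil, and 365 ± 17.3 and 359 ± 55.4 in males with E2 and oil. Its averaged fold was 1.04 with a 95% interval of 0.928 to 1.18. The groups of both genes overlapped in both sexes.

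**Figure D2:**
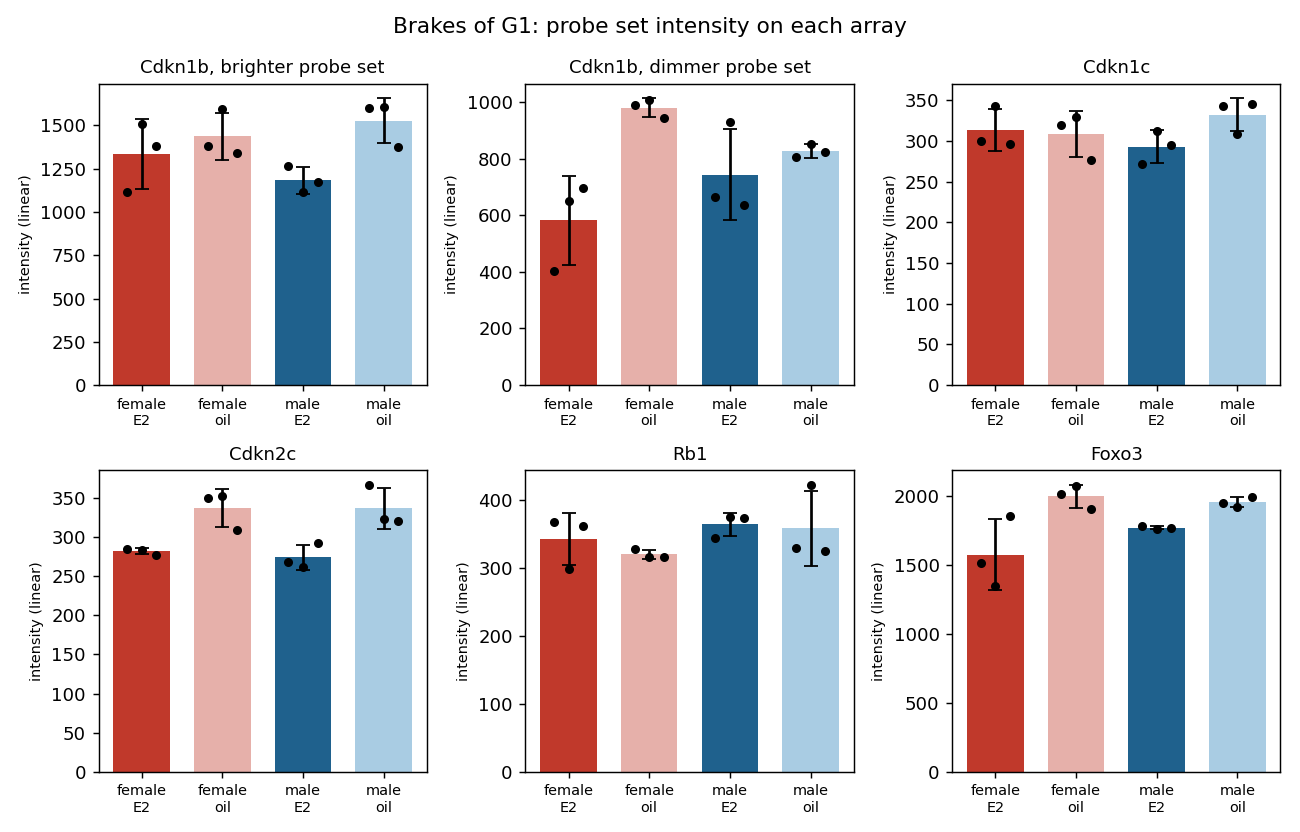
Linear probe set intensity of the 5 brakes, with both probe sets of Cdkn1b, in 4 groups (female E2, female oil, male E2, male oil). Bars are means, error bars SD over 3 arrays and points single arrays. E2 arrays lie below oil arrays in both sexes for Cdkn2c and Foxo3, and in males alone or females alone for the brighter and the dimmer Cdkn1b probe set.

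Set side by side, the drivers lay on both sides of 0 on average. The brakes other than Rb1 lay below 0, of which Cdkn2c and Foxo3 were called. The 5 drivers had a median averaged log2 fold change of 0.04 and ranged from -0.67 in Cdk6 to 0.30 in Ccnd1, with 3 of 5 above 0. The 5 brakes had a median of -0.24 and ranged from -0.28 in Cdkn2c to 0.06 in Rb1, with 1 of 5 above 0. The median over all genes tested was -0.01. E2 and oil arrays did not overlap, in the same direction in both sexes, for 3 of the 10 genes, Cdk6, Cdkn2c and Foxo3, all lower. This was so for 7.19% of all genes tested, 4.88% lower and 2.32% higher. Within females this held for 3 of 10 genes, against 20.1% of all genes, and within males for 6 of 10, against 26.5%. The 3 further genes in males were Cdk4 and Ccnd1, higher with E2, and Cdkn1b, lower.

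**Figure D3:**
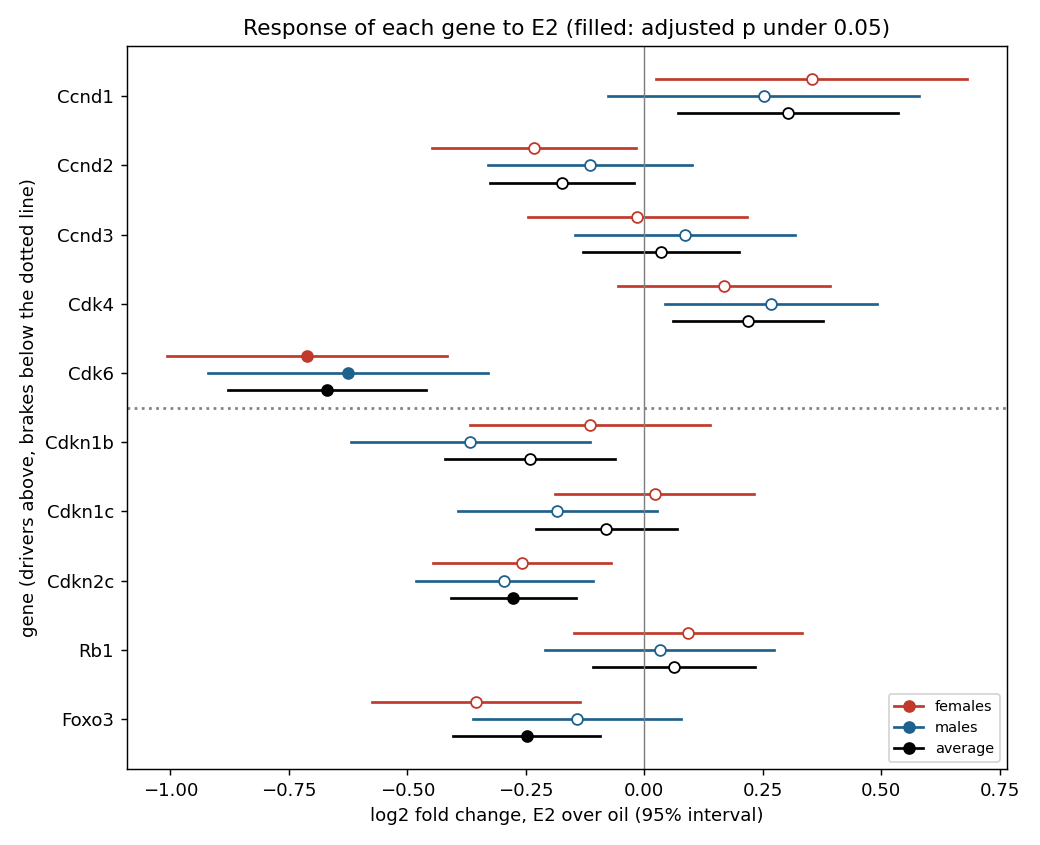
Log2 fold change of E2 over oil for each gene in females, in males and averaged, with 95% intervals from limma over 3 arrays per group. Filled points have an adjusted p under 0.05. Cdk6 is filled in all 3 comparisons and Cdkn2c and Foxo3 in the average, while the intervals of Ccnd3, Cdkn1c and Rb1 span 0.

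The response did not differ detectably between the sexes for any of the 10 genes. By limma's interaction test, 0 of 10 passed, while 0.01% of all genes were called. An unadjusted p under 0.05 was found for 0 of 10, against 5.37% of all genes. The female response minus the male response was -0.09 for Cdk6 (95% interval -0.51 to 0.33), 0.04 for Cdkn2c (-0.23 to 0.30) and -0.21 for Foxo3 (-0.52 to 0.10). It was 0.25 for the brighter Cdkn1b probe set (-0.11 to 0.61) and -0.62 for the dimmer (-1.18 to -0.06; unadjusted p = 0.0336, adjusted p = 0.913). These intervals leave room for differences as large as several of the responses themselves. Between females and males no difference was detected under E2, with 0 of 10 called and 0.01% of all genes called. The same held under oil, with 0 of 10 called and 0.0401% of all genes called. The log2 fold changes, female against male, ran from -0.20 to 0.16 under E2 and from -0.26 to 0.06 under oil. In both comparisons 0 of 10 had an unadjusted p under 0.05, against 9.04% of all genes under E2 and 4.99% under oil.

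Female E2 replicate 1 had the highest value of its group for all 5 drivers, Cdk6 included. On that array Cdk6 was nearest to the oil arrays, and without it the log2 fold change of Cdk6 in females was -0.90 (adjusted p = 0.000575). The same array had the lowest values of its group for both Cdkn1b probe sets, and without it the brighter probe set stood at 0.01 in females. Without it 2 of the 10 genes were called on average, where 10.2% of all genes were called. They were Cdk6 at -0.76 (adjusted p = 3.45e-05) and Cdkn2c at -0.28 (adjusted p = 0.0170), and Foxo3 stood at -0.24 (adjusted p = 0.0659).

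**Figure D4:**
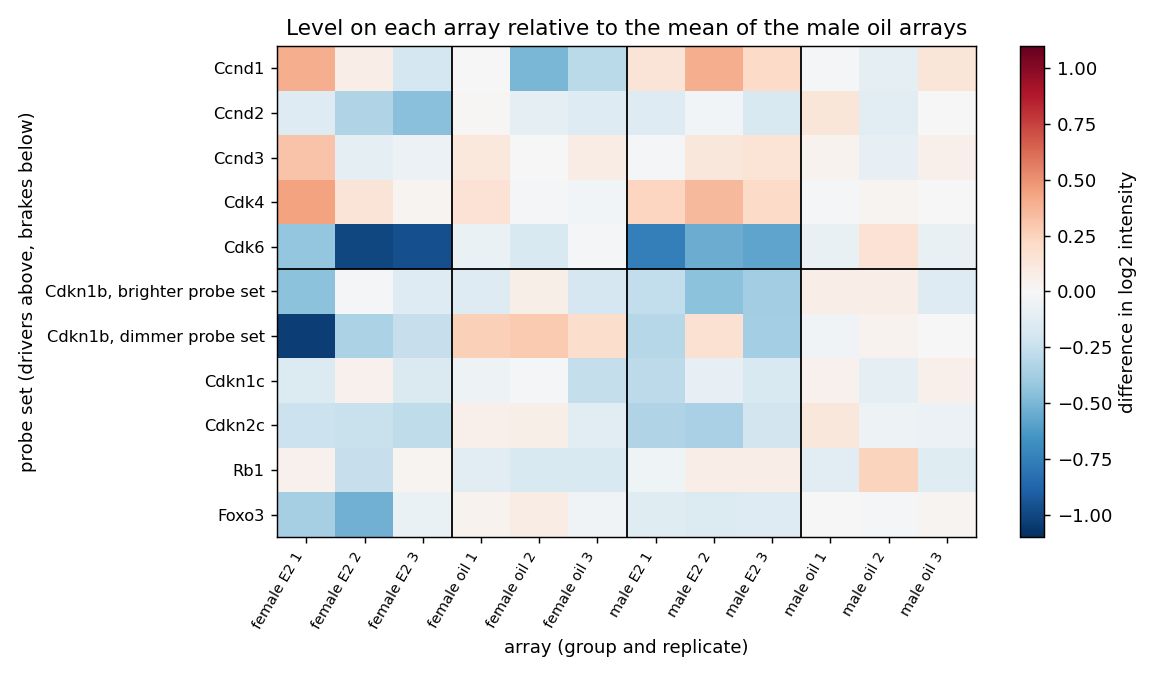
Difference in log2 intensity from the mean of the 3 male oil arrays, for the 11 probe sets (rows, drivers above and brakes below) on the 12 arrays (columns). Blue is lower and red higher. Cdk6 is blue on all 6 E2 arrays, and the first female E2 array has the reddest or least blue driver values of its group.

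Further genes of the G1 and S phase pathway were taken from 7 lists with 73 genes, of which 59 were tested. On average 9 rose, 3 fell and 47 did not pass, while 3.12% of all genes were called higher and 5.78% lower. The share of these 59 genes that fell was thus close to that of all genes. Within females 1 was called higher and 1 lower, where 0.813% of all genes were called higher and 2.75% lower. Within males 1 was called higher and 0 lower, where 0.572% of all genes were called higher and 0.863% lower. Without female E2 replicate 1 the averaged counts were 11 higher and 3 lower, while 3.2% of all genes were called higher and 6.96% lower. The E2F factors and their DP partners had an averaged median of 0.28 over 8 genes, with E2f1 and Tfdp1 higher and 6 not called. Without female E2 replicate 1 that median was 0.17, with 7 of 8 genes above 0 and E2f1, E2f7 and Tfdp1 called higher. In females the median was then -0.02, with 4 of 8 genes above 0, against 0.22 with all arrays. E2f1 averaged 932 ± 239 and 709 ± 35.3 in females with E2 and oil, and 983 ± 48.2 and 768 ± 45.2 in males with E2 and oil (SD, n = 3). Its averaged log2 fold change was 0.36 ± 0.10 (SE; limma adjusted p = 0.0343), and Tfdp1, an E2F dimer partner, stood at 0.40 ± 0.11 (adjusted p = 0.0375). The E2f1 call held in 4 of 12 leave-one-out fits and the Tfdp1 call in 5.

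Of 18 E2F target genes tested, 5 rose and 13 did not pass, with a median of 0.33 and all 18 above 0, while 3.12% of all genes were called higher. Those that rose were Cdc6, which loads the replicative helicase, at 0.76, the replication and methylation factor Uhrf1 at 0.58, the helicase subunit gene Mcm5 at 0.51, thymidine kinase Tk1 at 0.50 and the mitotic kinase Cdk1 at 0.31 (limma adjusted p from 0.00815 to 0.0371). The Mcm5 call held in 4 of 12 leave-one-out fits, with adjusted p of up to 0.101, and the other 4 calls held in 12. Within a sex, 1 of the 18 was called higher in females (Tk1), where 0.813% of all genes were called higher. In males 0 of 18 were called, where 0.572% of all genes were called higher. The mean level of the list, relative to the male oil arrays, was 0.76, 0.18 and 0.08 on the female E2 arrays and 0.21, -0.20 and -0.01 on the female oil arrays. In males it was 0.32, 0.52 and 0.40 with E2 and 0.06, -0.14 and 0.08 with oil. Female E2 replicate 1 was the highest of all 12 arrays, and the other 2 female E2 arrays lay within the range of the female oil arrays. Without it the list's median was 0.06 in females, with 0 of 18 called higher, and 0.24 on average, with 6 of 18 called higher. In those fits 1.34% of all genes were called higher in females and 3.2% on average.

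Of 4 other inhibitors and pocket proteins tested, Rbl1, a relative of Rb1 that E2F itself induces, was higher by 0.32 ± 0.08 (SE; limma adjusted p = 0.0311). The other members of that list, Rbl2, Cdkn2b and Cdkn2d, stood at 0.06, -0.09 and -0.03 without passing. The Rbl1 call held in 4 of 12 leave-one-out fits. Of 7 genes for turnover of G1 regulators, 1 rose and 6 did not pass. The riser was Cks1b, at 0.42 ± 0.07 (SE; limma adjusted p = 0.00163). Cks1b encodes the cofactor with which the ubiquitin ligase subunit Skp2 recognises the Cdkn1b protein. It averaged 1940 ± 117 and 1514 ± 112 in females with E2 and oil, and 1861 ± 113 and 1333 ± 106 in males with E2 and oil (SD, n = 3), with no overlap in either sex. Skp2 stood at 0.44 ± 0.13 (adjusted p = 0.0598).

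None of 6 late G1 cyclins and kinases passed, among them Ccne2 at 0.36 (limma adjusted p = 0.215) and Cdk2 at 0.11 (adjusted p = 0.402). None of 8 upstream regulators passed, with Myc at -0.07 and Foxo1 at -0.23. Of 8 FOXO target genes tested, 3 fell and 5 did not pass, with a median of -0.20, while 5.78% of all genes were called lower. They were Sesn3, a sestrin induced by FOXO factors, at -0.43 ± 0.07 (SE; adjusted p = 0.00200), the thioredoxin-binding protein gene Txnip at -0.39 ± 0.10 (adjusted p = 0.0298) and the mitophagy receptor gene Bnip3 at -0.23 ± 0.06 (adjusted p = 0.0448). Sesn3 averaged 370 ± 14.4 and 551 ± 34.8 in females with E2 and oil, and 446 ± 46.9 and 544 ± 42.8 in males with E2 and oil (SD, n = 3), with the groups apart in both sexes. The Sesn3 call held in 12 of 12 leave-one-out fits, and those for Txnip and Bnip3 in 4. Without female E2 replicate 1 the same 3 FOXO target genes were called lower on average, where 6.96% of all genes were called lower. The median of these targets was then -0.14 on average, and in females -0.12 against -0.25 with all arrays.

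**Figure D5:**
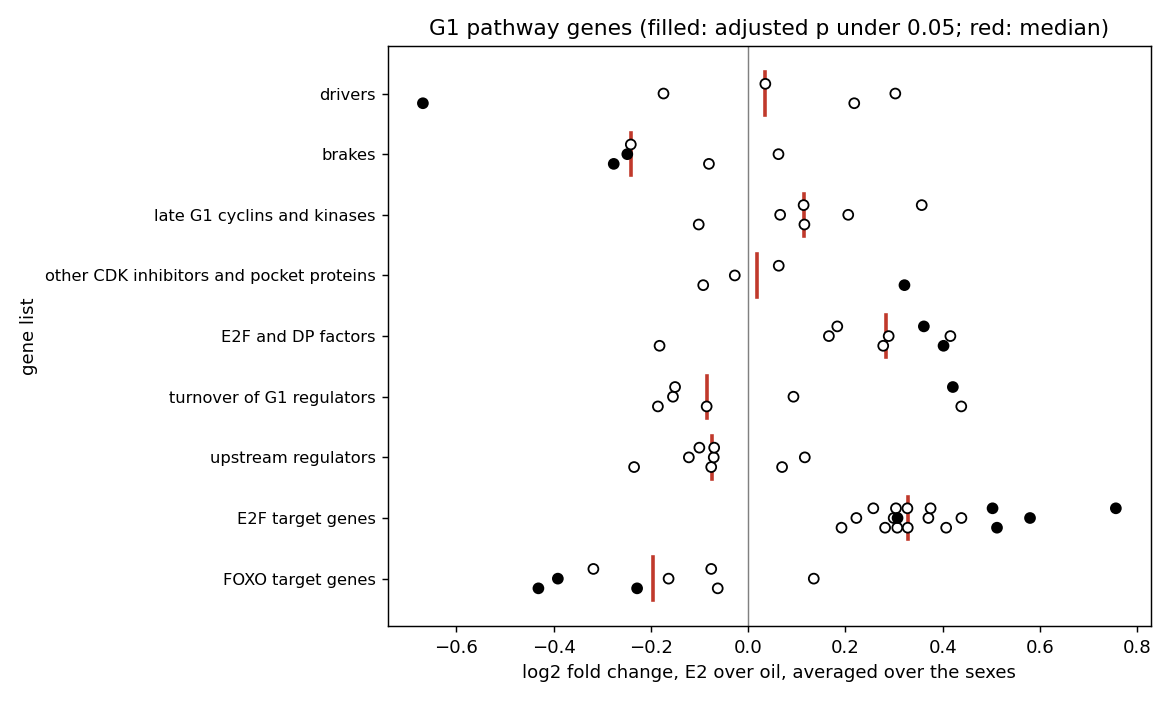
Averaged log2 fold change of E2 over oil for each tested gene of the drivers, the brakes and 7 pathway lists. Filled points have an adjusted p under 0.05 and red lines are list medians. The E2F target genes all lie above 0, with a median of 0.33, and the brakes have a median of -0.24.

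Some markers of other cell types were called in the averaged E2 comparison, where 5.78% of all genes were called lower and 3.12% higher. The marker calls given here are all from that comparison. In bulk samples, fewer cells of a type and less RNA per cell cannot be told apart. The summed intensity of 6 megakaryocyte markers was 2083 to 2881 and 3428 to 3771 in females with E2 and oil, and 2672 to 3029 and 3434 to 3751 in males with E2 and oil. Of these 6, 4 fell (Pf4, Plek, Gp5 and Itga2b), Gp9 rose and 1 did not pass. The 5 multipotent progenitor markers summed to 1895 to 2173 and 2441 to 2952 in females with E2 and oil, and to 2063 to 2130 and 2413 to 2867 in males with E2 and oil. Of the 3 progenitor markers tested, Flt3, Cd34 and Satb1, all fell.

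The 4 T and NK cell markers summed to 541 to 602 and 825 to 1026 in females with E2 and oil, and to 535 to 598 and 876 to 1092 in males with E2 and oil, but 1 gene carried the difference. Nkg7 averaged 173 and 495 in females with E2 and oil, and 165 and 573 in males with E2 and oil, and fell by 1.67 on the log2 scale (limma adjusted p = 0.000182). Cd3e, the other T and NK marker tested, stood at -0.01 (adjusted p = 0.952), and Cd3d and Klrb1c lay below the filter. The calls below are again from the averaged comparison, with 5.78% of all genes called lower and 3.12% higher. Of the 10 HSC markers tested, Kit, Procr and Robo4 fell and 7 did not pass. Their sums were 8137 to 9534 and 9509 to 10317 in females with E2 and oil, and 9218 to 9667 and 10432 to 10551 in males with E2 and oil. Of 7 granulocyte markers tested, Prtn3 fell and 6 did not pass. The 8 granulocyte markers summed to 5117 to 13321 and 8893 to 19652 in females with E2 and oil. In males they summed to 6792 to 11908 and 7369 to 15216 with E2 and oil. S100a8 averaged 3394 to 4198 per group and S100a9 2825 to 3698, while Mpo ran from 77.2 to 2775 over single arrays. The source of this granulocyte signal was not tested. Of 2 erythroid markers Tfrc rose, Cd79b fell as the 1 B cell marker tested, and the 1 monocyte marker tested, Cd68, did not pass. Among these marker calls, those for Tfrc, Satb1, Prtn3 and Cd34 held in 3, 4, 5 and 8 of 12 leave-one-out fits, those for Gp9 and Cd79b in 11, and the rest in 12. No probe set of any gene was listed at 0 on any array, the lowest value being 0.62. A marker value above 0 is thus no sign that the marker was present. The part of these markers in the values of Cdk6, Cdkn2c and Foxo3 was not tested.

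The genes most like Cdk6 over the 12 arrays, outside the lists, were found by the root mean square difference of log2 values after centring each gene on its own mean. They were Serpinf1 (difference 0.13), Maged1 (0.13), Csnk1e (0.14) and Afap1l1 (0.15), set against an SD of 0.37 for Cdk6 itself. Their averaged log2 fold changes were -0.73, -0.55, -0.53 and -0.55. For Cdkn2c, with an SD of 0.16, they were Marveld1, Git2, Acss2 and Vps37a, with differences of 0.07 to 0.08 and averaged log2 fold changes from -0.32 to -0.26.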

How the data were processed

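The authors deposited linear intensity per probe set for 12 Affymetrix arrays, made after NuGEN Ovation Pico WTA V2 amplification and Encore Biotin labelling, per the labels. How the authors summarised, background-corrected and normalized them is not stated in the labels or file headers. Gene symbols came from the platform's annotation, and all 11 member probe sets matched the RefSeq gene table by Entrez identifier. From the intensities, log2 of the value plus 1 was taken. The brightest single-symbol probe set stood for each gene, and genes above the median of gene means (log2 7.52, intensity 182) were kept. Limma 3.58.1 in R 4.3.3 fitted 1 mean per group to all 12 arrays, followed by eBayes. Residual df were 8 and prior df 5.38, and p-values were adjusted by Benjamini-Hochberg across the 9967 genes. An adjusted p under 0.05 was a call, and limma's adjusted p stands wherever one is printed. The averaged comparison is the mean of the 2 sexes' responses. The fold changes of the 2 sexes share no arrays with each other, but both enter the average. Their p-values are not independent, since each gene's spread was estimated once from all 12 arrays. No batch was named, and replicates are separate samples. The p-values thus rest on the spread between samples within groups, pooled over the 4 groups and moderated by eBayes. They do not measure the spread of the 2 compared groups alone.

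The members and lists were chosen with earlier results of these data known. The naming rule took all members, called list genes, a few fixed pathway genes, and the 4 genes most like the driver and the brake with the smallest p. Names of uncalled list genes beyond these (Cdkn2b, Cdkn2d, Myc, Foxo1, Cd68, Cd3e, Cd3d, Klrb1c, S100a8, S100a9, Mpo) were added after their values were seen. List genes without a single-symbol probe set, such as Cdkn1a, were not analysed here. The steps were tested on simulated data. Python 3.11.15 and matplotlib 3.10.9 drew the figures.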

Additional observations from a re-analysis of the deposited data

How the results depend on the processing

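Cdk6 and Cdkn2c were called lower in the averaged comparison under all 21 alternatives run, with log2 fold changes from -0.76 to -0.62 and from -0.31 to -0.24. The 3 genes called on average were 2 with median centring, no filter, a filter at the 25th percentile or the replicate block, and 4 with the mean of probe sets, where Cdkn1b joined (adjusted p = 0.0293), or with trend and robust eBayes, where Cdk4 joined (adjusted p = 0.0367). Foxo3 was the gene lost, with adjusted p from 0.0674 under the replicate block to 0.116 with no filter. Leaving out each array gave 2 to 5 genes called on average, 0 to 2 in females and 0 to 1 in males, while the share of all genes called ran from 4.83% to 11.5% on average, 1.22% to 5.51% in females and 0.532% to 3.29% in males. The count of 1 in males was 0 with median centring, no filter, the 25th percentile filter and the replicate block, where Cdk6 had an adjusted p from 0.0538 to 0.0987. The count of 1 in females was 0 when the compared groups were fitted alone and 2 with trend and robust eBayes, with Foxo3 added (adjusted p = 0.0337). Without a filter or with a looser one more genes were tested by construction, and in the other fits the cause was not tested. With the dimmer probe set, an alternative chosen after seeing the data, Cdkn1b was called lower in females and on average. Same-numbered samples of different groups correlated at -0.26 to 0.20 in their deviations from the group means (median -0.04), over 0.1 in 4 of 18 pairs. Differently numbered samples correlated at -0.33 to 0.28 (median 0.04), over 0.1 in 10 of 36 pairs. The replicate numbers were therefore not taken to pair samples.

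Direction turned only for values close to 0 that were not called on the brightest probe set. Cdkn1c in females, at 0.02, was -0.033 with median centring and -0.00094 with array weights. With single arrays left out it ran from -0.054 to 0.072, Ccnd3 in females from -0.15 to 0.059 and on average from -0.030 to 0.072, Rb1 in males from -0.035 to 0.16, and Cdkn1b in females from -0.21 to 0.0089. The table gives no background, so the signal over background of Cdkn1c, Cdkn2c and Rb1, at 262 to 423, is unknown.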

Other observations

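Of the pathway genes, 10 lay below the filter on dim genes and were not tested, and the values here were chosen after they had been seen. Gadd45a, a growth arrest and DNA damage gene counted among FOXO targets, read 85.2, 119 and 171 on the female E2 arrays and 183, 239 and 243 on the female oil arrays. In males it read 124, 126 and 104 with E2 and 225, 231 and 265 with oil, so the groups did not overlap in either sex. Bcl2l11, the gene of the cell death protein Bim, read 186, 143 and 128 on the female E2 arrays and 196, 191 and 223 on the female oil arrays, and 120, 188 and 156 with E2 and 206, 201 and 196 with oil in males. These 2 were the only ones of the 10 with groups apart, in the same direction, in both sexes. Of all 9968 genes below the filter, 1.34% were apart in this way, 0.662% lower and 0.682% higher. Ccne1, the cyclin gene that acts after the D cyclins, read 261, 167 and 179 on the female E2 arrays and 183, 144 and 169 on the female oil arrays. In males Ccne1 read 200, 276 and 193 with E2 and 176, 117 and 133 with oil, with the groups apart in males alone.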
